A study of Rattus norvegicus with 6 samples.

Results

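The genes described here are those of cytochrome P450 families 1 to 4 that were expressed in rat lung. Members were the genes of the count table named Cyp, then a digit from 1 to 4, then a letter, with at least 10 read counts in at least 2 libraries. Of 40995 genes in the table, 61 had such a name and 30 of these reached the minimum: 2 of family 1, 17 of family 2, 1 of family 3 and 10 of family 4. The other 31 had low counts, 16 of them with none in any library, and the highest count among the rest was 17.

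Cytochrome P450 enzymes are haem proteins of the endoplasmic reticulum that insert an oxygen atom into their substrates, with electrons passed on by P450 oxidoreductase (Por). Families 1 to 3 are best known for oxidising drugs, combustion products and other foreign chemicals, and family 4 for hydroxylating fatty acids and leukotrienes at the end of the chain. In rodent lung many of these enzymes are concentrated in club cells, the secretory cells of the small airways, where they can turn inhaled compounds such as naphthalene into toxic products.

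Lung tissue of 6 Sprague-Dawley rats was profiled by poly-A selected mRNA sequencing with paired reads. The wild-type (WT) group had 3 rats, and the knockout (KO) group had 3 rats of the crTMPRSS2 line, in which CRISPR/Cas9 was directed at Tmprss2, a gene for a membrane-bound serine protease of epithelia. No rat was treated, so the comparison is between the KO and WT groups at baseline. The labels call the rats biological replicates and give 1 batch for all 6 libraries. The sources used here do not give sex, age, litter, the edited allele or the number of founders of the line. Differences between the groups in sex, age, litter or line background cannot be told apart from the edit.

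Total counts ran from 29933359 to 36895162 per library. Tmprss2 itself had 50.5, 62.0 and 65.7 counts per 1000000 counts (CPM) in WT replicates 1 to 3 and 46.1, 56.4 and 47.0 CPM in KO replicates 1 to 3. These counts cover the whole gene, so they do not check the edit, and the groups are those of the labels. WT replicate 1 stood apart, at -108.6 on the first principal component of log2 CPM against 9.09 to 30.6 in the other 5 libraries. Its summed FPKM (fragments per kilobase of gene and per 1000000 fragments, as deposited) over 10 markers of basal and squamous epithelium was 2083, against 5.10 to 11.3 in the others, and over 10 skeletal muscle markers 6757 against 19.6 to 38.7. The main results are therefore given with and without that library. Lung epithelial markers were present in every library, with 8361 to 14222 summed FPKM over 10 markers of club and other secretory cells. Of 10 hepatocyte markers, 3 to 5 were at 0 in each library and only 3 passed the filter on low counts.

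The 30 genes were dominated by 2 members. Cyp4b1, which activates furans such as 4-ipomeanol, was at 201, 172 and 178 FPKM in WT replicates 1 to 3 and at 209, 190 and 171 FPKM in KO replicates 1 to 3. Cyp2b1, the main phenobarbital-inducible P450 of rat liver and a constitutive P450 of rat lung, was at 104, 99.96 and 95.5 FPKM in WT and at 98.4, 113 and 104 FPKM in KO. The groups overlapped for both genes. Together these 2 genes made up 56.8% to 61.6% of the summed FPKM of the 30 members in WT and 62.1% to 65.3% in KO. The summed FPKM was 477 ± 51.9 (SD, n = 3) in WT and 464 ± 19.98 (SD, n = 3) in KO, a difference smaller than the spread among WT rats.

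**Figure D1:**
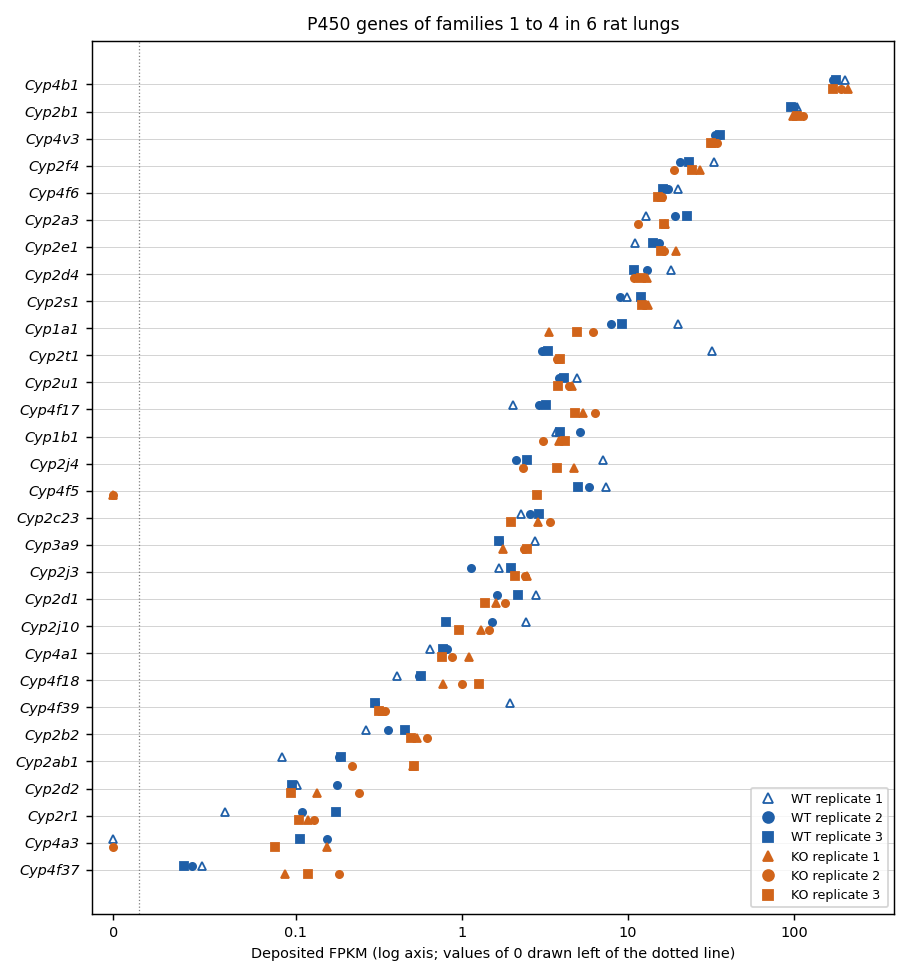
Deposited FPKM (log axis) of each of the 30 P450 genes of families 1 to 4 in the 6 lungs, ordered by mean over all libraries; blue symbols are WT, orange symbols KO, and the open triangle is WT replicate 1. Levels span from Cyp4b1 near 200 FPKM to Cyp4f37 under 0.2 FPKM, and Cyp4f5 is listed at 0 in KO replicates 1 and 2.

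Below these 2 genes, on the FPKM scale, came Cyp4v3 at 31.7 to 35.7 and Cyp2f4 at 19.0 to 32.7 over the 6 libraries. Cyp4v3 is the rodent counterpart of human CYP4V2, a fatty acid hydroxylase, and Cyp2f4 that of mouse Cyp2f2, which activates naphthalene. Cyp4f6, Cyp2a3, Cyp2e1, Cyp2d4 and Cyp2s1 had means over all libraries of 16.8, 16.6, 15.3, 13.0 and 11.4 FPKM. Of the remaining 21 members, 12 had a mean of 1 to 9 FPKM and 9 a mean under 1 FPKM. Several liver forms known from drug metabolism in rats did not reach the count minimum. Cyp2c, with 8 named genes in the table, had 1 member, Cyp3a had 1 of 7, and Cyp1a had 1 of 2. By contrast 3 of 5 Cyp2d genes, 6 of 9 Cyp4f genes and 3 of 4 Cyp2j genes were members. Cyp2b1, also a P450 of rat liver, was among the 2 highest members.

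The count minimum cut through a group of very low genes. Just inside it, Cyp4a3 had counts of 0, 13 and 10 in WT and 12, 0 and 6 in KO, and Cyp2d2 had 5, 10 and 6 in WT and 7, 13 and 5 in KO. Just outside it, Cyp4a8 had counts of 0, 6 and 7 in WT and 17, 2 and 0 in KO, and Cyp3a62 had 0, 9 and 9 in WT and 4, 7 and 3 in KO.

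No member passed the test of KO against WT over all 6 libraries, and 1, Cyp4f17, passed without WT replicate 1. With edgeR's quasi-likelihood test and Benjamini-Hochberg adjustment over 18464 genes, 0 of 28 tested members had an adjusted p under 0.05, beside 0.0542% of all genes. At an unadjusted p under 0.05 there were 6 of 28 (21.4%, 5 higher and 1 lower in KO), beside 11.3% of all genes, and DESeq2 called 2 (Cyp4f17 higher, Cyp1a1 lower). With that library left out, 1 of 29 tested members passed, beside 3.99% of all genes (1.65% higher and 2.34% lower in KO). At an unadjusted p under 0.05 there were then 10 of 29 (34.5%, 7 higher and 3 lower), beside 17.8% of all genes. The shares of members under the unadjusted threshold were thus above those of all genes in both comparisons. Both counts hold Cyp4f37, which reached the count minimum through its KO libraries alone. The 10 also hold Cyp4f5, which reached it through its WT libraries. For both genes a difference came with selection, so the shares are a description, and their distance from those of all genes was not tested.

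The sizes of the differences were modest for most members. With all 6 libraries, 18 of 28 members (64.3%) had a log2 fold change of KO over WT within 0.5 of 0, beside 80.0% of all genes tested, and without WT replicate 1 it was 20 of 29 (69.0%) beside 84.1%. The median log2 fold change was 0.03 over the members with 6 libraries (14 above 0, 14 below) and 0.11 without WT replicate 1 (20 above, 9 below), and for all genes it rounded to 0.00 in both. The CPM of the 2 groups did not overlap in 11 of 28 members (39.3%), 8 higher and 3 lower in KO, beside 22.8% of all genes. Such counts include Cyp4f37, which reached the count minimum through its KO libraries alone, and Cyp4f5, which did so through its WT libraries. In bulk tissue, fewer cells of a type and less RNA per cell cannot be told apart, for any of these values.

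**Figure D2:**
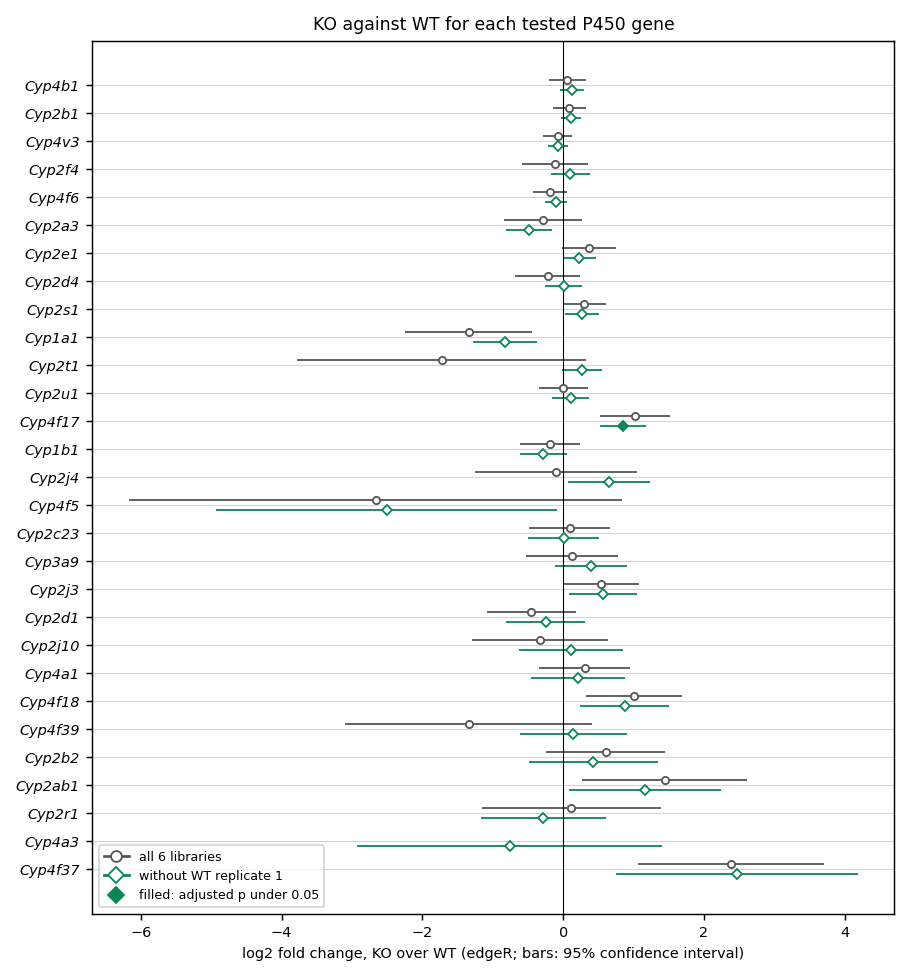
log2 fold change of KO over WT with its 95% confidence interval for each tested member, from edgeR with all 6 libraries (grey circles) and without WT replicate 1 (green diamonds), in order of mean FPKM. Only the diamond of Cyp4f17 is filled, the 1 estimate with an adjusted p under 0.05; the widest intervals belong to Cyp4f5, Cyp4a3, Cyp2t1 and Cyp4f39.

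The enzymes that activate foreign chemicals in club cells were at similar levels in both genotypes where their levels were high. For Cyp4b1 the log2 fold change was 0.06 with a 95% confidence interval of -0.21 to 0.33, and for Cyp2b1 it was 0.09 (-0.15 to 0.32). Cyp2f4 had a log2 fold change of -0.11 with an interval of -0.58 to 0.36, and 0.10 (-0.18 to 0.38) without WT replicate 1. None of these passed, and the intervals leave room for differences up to their bounds.

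Cyp2a3, Cyp2e1 and Cyp2s1 had larger estimates. Cyp2a3, an enzyme of nasal and lung epithelium that activates nitrosamines, was at 12.9, 19.2 and 22.6 FPKM in WT and 16.7, 11.5 and 16.5 FPKM in KO. The groups overlapped because WT replicate 1 was low. With it left out, the log2 fold change was -0.48 (95% confidence interval -0.81 to -0.16), with an adjusted p of 0.107 by edgeR's quasi-likelihood test. Cyp2e1, which oxidises ethanol and other small molecules, was at 10.9, 15.4 and 14.1 FPKM in WT and at 19.4, 16.5 and 15.8 FPKM in KO. All 3 KO rats were above all WT rats, by little, and the log2 fold change was 0.36 (-0.02 to 0.74). Cyp2s1, a P450 of epithelia outside the liver, was at 9.82, 8.99 and 12.0 FPKM in WT and 13.2, 12.5 and 12.1 FPKM in KO, again without overlap, with a log2 fold change of 0.30 (0.00 to 0.60). Neither gene passed, with adjusted p-values by edgeR of 0.452 for Cyp2e1 and 0.441 for Cyp2s1. LOC120099958 overlaps Cyp2e1 on the opposite strand over 3137 bases. It had 33, 90 and 114 counts in WT and 200, 247 and 161 counts in KO. LOC103691073 overlaps Cyp2a3 on the opposite strand over 1296 bases, with 21, 72 and 137 counts in WT and 150, 109 and 142 in KO. The sources used here do not say whether counting used strand, and the part of these overlaps was not tested.

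The summed level of the 10 markers of club and other secretory cells was 8361, 10025 and 10657 FPKM in WT and 14222, 13448 and 12424 FPKM in KO, with no overlap, and Scgb1a1, the main secretory protein of club cells, made up most of it. Of the 9 of 10 markers tested, 0 passed by edgeR with all 6 libraries (2 at an unadjusted p under 0.05, 1 by DESeq2) and 2, Scgb1a1 and Scgb3a2, were called higher without WT replicate 1. Without WT replicate 1, 6 of the 9 had log2 fold changes above 0. Agr2, Bpifa1 and Aldh1a1 were below 0, at -0.47, -0.09 and -0.08. Summed markers of other cells also lay apart by genotype, lower in KO. Fibroblasts were at 1377 to 2262 FPKM in WT and 1094 to 1148 FPKM in KO, and macrophages at 212 to 306 and 177 to 193 FPKM. Alveolar type 2 cells were at 16795 to 27844 and 14341 to 15434 FPKM. The sums of alveolar type 1, endothelial, ciliated and hepatocyte markers lay apart in the same direction. Those of basal, smooth muscle, skeletal muscle and adipocyte markers overlapped. In the ciliated list Tppp3 made up most of the sum, and 8 of 10 markers had log2 fold changes above 0 with 6 libraries. The endothelial genes did not all follow their sum. With 6 libraries 1 of 10 was higher in KO, but 6 of 10 were without WT replicate 1, at a median log2 fold change of 0.05. Serpina1 supplied most of the hepatocyte sum, with 31.3 of 31.8 FPKM in WT replicate 1 and 13.9 of 15.6 FPKM in KO replicate 3. Without WT replicate 1, log2 fold changes were 0.12 for Cyp4b1, 0.11 for Cyp2b1, 0.10 for Cyp2f4, 0.23 for Cyp2e1, 0.26 for Cyp2s1 and -0.48 for Cyp2a3. The part of the marker shifts in the values of the P450 genes was not tested.

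Cyp2b1 is one of a pair of near copies. Its neighbour Cyp2b2 was at 0.265, 0.358 and 0.457 FPKM in WT and 0.535, 0.616 and 0.493 FPKM in KO, far below Cyp2b1 in every library. The 2 genes lie on chromosome 1 of mRatBN7.2, Cyp2b1 at 81518387 to 81544999 and Cyp2b2 at 81594534 to 81608567. The aligned parts of their upstream windows are printed to show how alike these are although the transcript levels differ so much. Of 233 aligned bases before the annotated starts (RefSeq, build GRCr8, plus strand, chr1:90645886-90646118 for Cyp2b1 and chr1:90722031-90722263 for Cyp2b2), 225 were identical (96.6%). A further 17 bases of each 250-base window were outside the alignment and are not printed. Capitals mark the 8 bases that differ.
Cyp2b1: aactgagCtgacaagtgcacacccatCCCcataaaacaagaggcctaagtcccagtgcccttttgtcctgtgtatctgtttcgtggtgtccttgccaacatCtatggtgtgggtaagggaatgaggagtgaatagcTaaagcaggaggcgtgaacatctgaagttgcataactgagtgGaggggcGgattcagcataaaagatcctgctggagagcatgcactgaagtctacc
Cyp2b2: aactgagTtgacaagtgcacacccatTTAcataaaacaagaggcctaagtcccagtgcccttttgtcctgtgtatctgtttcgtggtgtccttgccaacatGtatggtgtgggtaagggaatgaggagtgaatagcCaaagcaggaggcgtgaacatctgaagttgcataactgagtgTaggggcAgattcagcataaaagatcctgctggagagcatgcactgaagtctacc
The sources used here do not say how reads shared by such copies were assigned, so the level of Cyp2b2 is uncertain, and the same holds for the close relatives within Cyp2d, Cyp2j, Cyp4a and Cyp4f.

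In family 1, Cyp1a1 had lower values in every KO rat than in any WT rat but did not pass the edgeR test. Cyp1a1 and Cyp1b1 oxidise polycyclic aromatic hydrocarbons, and Cyp1a1 is the classic target of the aryl hydrocarbon receptor (Ahr). Cyp1a1 (chromosome 8, 58096021 to 58102130 of mRatBN7.2, plus strand) had 19.96, 7.88 and 9.23 FPKM in WT and 3.35, 6.19 and 4.93 FPKM in KO, from 280 to 1577 counts. The groups did not overlap, and WT replicate 1 was more than double the other 2 WT rats. Over all 6 libraries edgeR's quasi-likelihood test gave Cyp1a1 an adjusted p of 0.300, at a log2 fold change of -1.34 ± 0.39 (SE; 95% confidence interval -2.25 to -0.44). Leaving WT replicate 1 out gave -0.82 ± 0.20 (SE; -1.28 to -0.37), with an adjusted p of 0.0542 by the same test. The authors' deposited table of 192 genes lists Cyp1a1 with a log2 fold change of -1.356 and an adjusted p of 0.01086, and DESeq2 run here gave an adjusted p of 0.0183 with 6 libraries and 0.00142 without WT replicate 1.

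Cyp1b1 did not share this difference beyond its spread. It was at 3.68, 5.12 and 3.89 FPKM in WT and at 3.84, 3.10 and 4.16 FPKM in KO, with overlapping groups. The log2 fold change was -0.19 (95% confidence interval -0.61 to 0.23), and -0.28 (-0.61 to 0.05) without WT replicate 1. Cyp1a2, the third gene of the family and a liver enzyme, was under the count minimum.

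Of 6 other genes of the aryl hydrocarbon receptor pathway (Ahr, Arnt, Ahrr, Tiparp, Nqo1 and Aldh3a1), 0 were called by edgeR or DESeq2 in either comparison. At an unadjusted p under 0.05 there were 0 by edgeR with 6 libraries and 2 (Ahr and Aldh3a1, both higher in KO) without WT replicate 1. Ahr was at 21.0, 29.2 and 31.3 FPKM in WT and at 34.1, 33.0 and 34.6 FPKM in KO, where every KO rat was above every WT rat. Its log2 fold change was 0.33 with an adjusted p of 0.478 by edgeR, and 0.17 with 0.164 without WT replicate 1. Arnt, the partner of Ahr, lay between 18.0 and 20.8 FPKM in all 6 libraries. Tiparp and Nqo1, further targets of the receptor, had log2 fold changes of 0.08 and -0.10 with overlapping groups. Ahrr, which represses the receptor, was at most 0.166 FPKM, with a log2 fold change of -0.63. Aldh3a1, another target, was at 27.2 FPKM in WT replicate 1 and at 1.07 to 3.62 FPKM in the other 5 libraries.

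**Figure D3:**
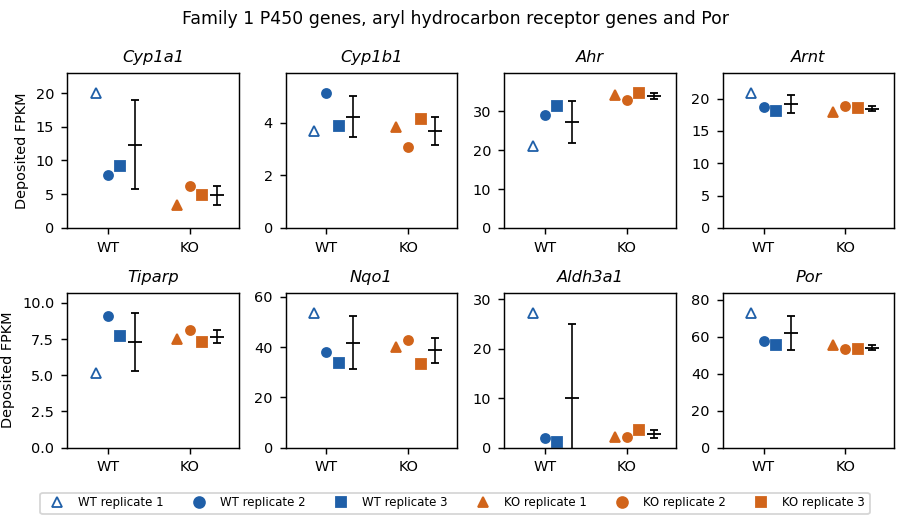
Deposited FPKM by library of Cyp1a1, Cyp1b1, 5 genes of the aryl hydrocarbon receptor pathway and Por, with the mean and SD of each group (n = 3; the lower bar of Aldh3a1 in WT ends at the axis). The KO points of Cyp1a1 lie at 3.35 to 6.19 FPKM, below all WT points, while Cyp1b1, Arnt, Tiparp and Nqo1 overlap.

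The upstream window of Cyp1b1 is printed because it holds the core letters of the response element that Ahr and Arnt bind, GCGTG, in both orientations. It covers 250 bases before the annotated start at chr6:21094315-21094564 (RefSeq, build GRCr8, plus strand), and capitals mark GCGTG or its reverse complement CACGC.
Cyp1b1: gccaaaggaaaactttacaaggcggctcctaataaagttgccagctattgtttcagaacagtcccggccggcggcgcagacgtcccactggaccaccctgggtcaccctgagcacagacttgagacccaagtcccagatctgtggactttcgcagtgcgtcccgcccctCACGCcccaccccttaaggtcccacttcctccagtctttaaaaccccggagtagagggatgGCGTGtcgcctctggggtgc
On either strand, GCGTG occurred in the 250 bases before the start of 9 of the 25 members with a window (36%) and in 25.9% of all 33469 windows of the same length. AGGTCA, a building block of nuclear receptor sites, occurred in 5 of 25 (20%) beside 14.1%, and TATAAA in 3 of 25 (12%) beside 12.9%. Each motif was counted on its own, matches of different motifs may share letters, and a match describes the window alone. Cyp1a1, Cyp4f17, Cyp4v3, Cyp4a1 and Cyp2ab1 were not among the 25.

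Among the larger differences of family 4 were those of neighbouring Cyp4f genes of chromosome 7. Cyp4f18, on chromosome 16, had a log2 fold change of 1.01 beside 1.02 for Cyp4f17, and 0.87 beside 0.85 without WT replicate 1. Enzymes of this subfamily hydroxylate leukotriene B4 and long fatty acids. In mRatBN7.2 the genes Cyp4f39 (11426806 to 11505553), Cyp4f17 (11518985 to 11536208), Cyp4f5 (11544040 to 11558982) and Cyp4f37 (11572573 to 11595063) follow each other on the plus strand, with 7831 bases between Cyp4f17 and Cyp4f5 and 13590 between Cyp4f5 and Cyp4f37. Cyp4f17 and Cyp4f37 were higher in the KO libraries, Cyp4f5 was lower, and Cyp4f39 differed in WT replicate 1 alone. Cyp4f5 and Cyp4f37 were singled out after their values were seen.

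Cyp4f17 was at 2.03, 2.91 and 3.20 FPKM in WT and at 5.36, 6.29 and 4.82 FPKM in KO, from 179 to 604 counts. The KO rats were all above the WT rats, and the mean CPM was 2.03 times that of WT, or 1.80 times without WT replicate 1. Over all 6 libraries edgeR's quasi-likelihood test gave an adjusted p of 0.204, at a log2 fold change of 1.02 ± 0.21 (SE; 95% confidence interval 0.52 to 1.52). In the comparison without WT replicate 1 the gene rose in KO, by 0.85 ± 0.14 (SE; 0.53 to 1.17) on the log2 scale, with an adjusted p of 0.0117 by the same test. That call was lost when WT replicate 2 (adjusted p of 0.0804 by edgeR) or KO replicate 2 (0.0559) was left out as well. It was also lost with limma on log2 of FPKM plus 1 or plus 0.1, where the adjusted p was 0.0673 and 0.0542. The authors' deposited table gives Cyp4f17 a log2 fold change of 1.014 and an adjusted p of 0.001812.

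Cyp4f5, its downstream neighbour, had 590, 534 and 512 counts in WT and 0, 0 and 246 counts in KO. These counts correspond to 19.98, 16.1 and 13.7 CPM in WT and 0, 0 and 7.84 CPM in KO. The KO rats were thus not alike: 2 had no read of the gene, and KO replicate 3 had 47.2% of the WT mean. A floor of 3 counts is 0.0971 CPM in KO replicate 1 and 0.0946 CPM in KO replicate 2, so the WT mean was at least 171-fold and 176-fold higher than these 2 libraries, counting error alone considered. Over the groups, KO over WT came to -2.66 ± 1.49 (SE; 95% confidence interval -6.17 to 0.84) on the log2 scale, with an adjusted p of 0.522 by edgeR's quasi-likelihood test, and -2.51 (-4.93 to -0.09) with 0.265 without WT replicate 1. This fitted value depends on how counts of 0 are handled.

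The upstream window of Cyp4f5 is printed because the gene had reads in all WT libraries and in only 1 of the KO libraries. It is the 250 bases before the annotated start at chr7:12194387-12194636 (RefSeq, build GRCr8, plus strand), with the 1 match to GCGTG in capitals. It holds neither AGGTCA nor TATAAA on either strand.
Cyp4f5: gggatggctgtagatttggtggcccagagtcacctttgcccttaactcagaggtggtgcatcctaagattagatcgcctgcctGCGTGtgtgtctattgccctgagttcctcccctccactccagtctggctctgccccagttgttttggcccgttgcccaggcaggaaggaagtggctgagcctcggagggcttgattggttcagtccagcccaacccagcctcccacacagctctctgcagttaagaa
No variant or sequence of the rats themselves was read here.

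Cyp4f37, the next gene, was nearly silent in WT. It had 3 counts in each of the 3 WT libraries and 10, 22 and 14 counts in KO, which is 0.0213 to 0.0273 FPKM in WT and 0.0859 to 0.183 FPKM in KO. All KO rats were above all WT rats at this low level. The gene reached the count minimum through its KO libraries alone, so a higher KO value came with its selection. Its edgeR result (log2 fold change of 2.39, adjusted p of 0.246 with 6 libraries) is therefore given as a description only. The summed CPM of Cyp4f17, Cyp4f5 and Cyp4f37 was 26.1, 25.0 and 23.5 in WT and 16.5, 19.7 and 22.8 in KO, so the sum was lower in each KO library than in any WT library. The 3 genes are close relatives, and whether reads of one were counted for another was not tested.

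**Figure D4:**
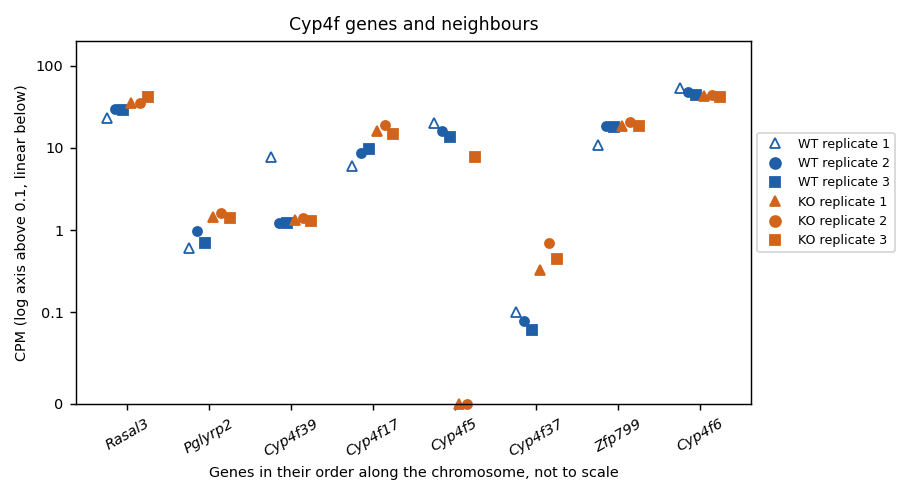
CPM by library (log axis above 0.1 CPM, linear below) of 5 Cyp4f genes and 3 of the genes around them, in their order along chromosome 7, drawn at equal steps; blue is WT, orange is KO, and the open triangle is WT replicate 1. Cyp4f17 and Cyp4f37 lie higher in all KO libraries, Cyp4f5 lies at 0 in KO replicates 1 and 2 and at 7.84 CPM in KO replicate 3, and Cyp4f39 stands out in WT replicate 1.

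The genes around this cluster were compared in the same way. Of the 12 tested genes that flank it, 6 on each side, 0 were called by edgeR in either comparison (3 at an unadjusted p under 0.05 with 6 libraries, beside 11.3% of all genes), and DESeq2 called 0 with 6 libraries and 2 (Akap8l and Rasal3) without WT replicate 1. With WT replicate 1 left out, 4 of the 12 had an unadjusted p under 0.05 (Akap8, Akap8l, Rasal3 and Pglyrp2), beside 17.8% of all genes. These 4 were all higher in KO and all lie on the Cyp4f39 side of the cluster. The 3 with 6 libraries (LOC103692782, Pglyrp2 and Rasal3) were higher in KO as well, and LOC103692782 lies on the other side. Without WT replicate 1 the 12 log2 fold changes ran from -0.07 to 0.85, the latter for Pglyrp2, beside 0.85 for Cyp4f17. Cyp4f6, a further Cyp4f gene at 12030276 to 12058020 on the minus strand, was at 19.97, 17.4 and 16.3 FPKM in WT and 15.8, 15.9 and 15.1 FPKM in KO. The KO rats were lower by little, with a log2 fold change of -0.19 (95% confidence interval -0.43 to 0.06). Cyp4f18, which inactivates leukotriene B4 in neutrophils, lies apart on chromosome 16. It had 38, 58 and 67 counts in WT and 76, 102 and 127 counts in KO, all KO rats above all WT rats, with a log2 fold change of 1.01 (0.33 to 1.68) and an adjusted p of 0.300 by edgeR, or 0.87 with 0.139 without WT replicate 1.

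The other family 4 members showed no difference that passed. Cyp4v3 was at 35.0, 33.3 and 35.7 FPKM in WT and 32.0, 34.4 and 31.7 FPKM in KO, with a log2 fold change of -0.08 (95% confidence interval -0.28 to 0.13). Cyp4a1, a fatty acid hydroxylase under control of the receptor PPAR alpha, was at 0.641 to 0.811 FPKM in WT and 0.756 to 1.11 FPKM in KO. Its log2 fold change was 0.31 (-0.34 to 0.95). Cyp4a3 did not pass the filter on low counts with 6 libraries.

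WT replicate 1 set the WT mean of several members. It was the highest of the 6 libraries in 12 of 30 members and the lowest in 7. In 10 members (33.3%) its CPM was more than 2-fold from the median of the other 5 libraries, beside 20.1% of all genes tested, and in 3 it was more than 4-fold from it. Cyp2t1 had 2858 counts in WT replicate 1 and 308 to 379 counts in the other 5 libraries, 8.46 times their median in CPM. Cyp4f39, which in mouse makes skin lipids, had 230 counts there and 40 to 45 counts elsewhere, a ratio of 6.11. The third, Cyp4a3, was at 0 counts there.

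For Cyp2t1 and Cyp4f39 the other 5 libraries lay close together. Cyp2t1 was at 3.03 and 3.32 FPKM in WT replicates 2 and 3 and at 3.83, 3.72 and 3.87 FPKM in KO, and Cyp4f39 at 0.300 in both WT rats and 0.317 to 0.344 FPKM in KO. With 6 libraries their log2 fold changes were -1.73 and -1.34, and without WT replicate 1 they were 0.26 (95% confidence interval -0.02 to 0.55) and 0.14 (-0.62 to 0.90). The direction thus turned on that 1 library. The same library held the squamous and muscle markers given above, such as Krt13 at 1022 FPKM against 0.0947 to 0.324 FPKM in the others, and their part in these values was not tested. Cyp4f39 overlaps Pglyrp2 on the opposite strand over 5357 bases, Cyp2t1 overlaps Egln2 over 11 bases, and the sources used here do not say whether counting used strand. Pglyrp2 had 18 counts in WT replicate 1 and 26 to 52 in the other libraries.

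**Figure D5:**
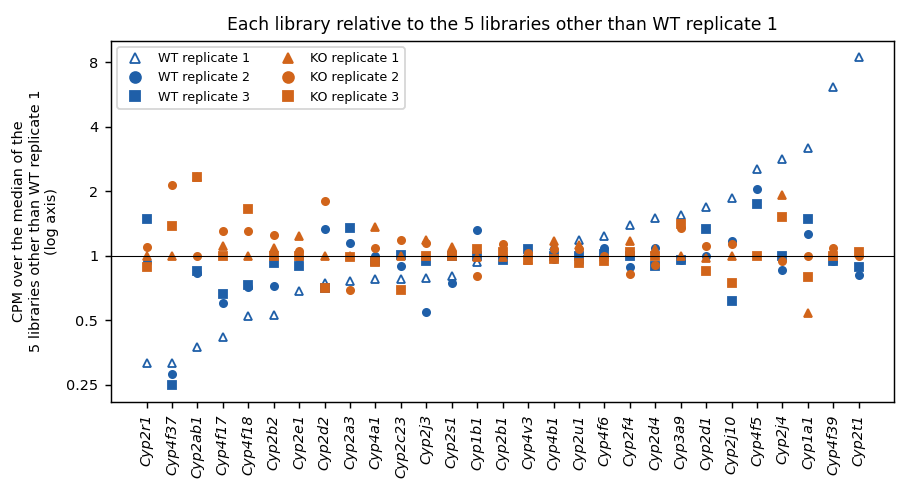
CPM of each library divided by the median of the 5 libraries other than WT replicate 1 (log axis), for the 29 members with counts in WT replicate 1, ordered by its ratio. WT replicate 1 (open triangles) reaches 8.46 for Cyp2t1 and 6.11 for Cyp4f39, while most other points lie near 1.

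Some enzymes of family 2 act on arachidonic acid and other fatty acids of the body. Cyp2j3 and Cyp2j4, epoxygenases of arachidonic acid, had means over all libraries of 1.95 and 3.75 FPKM. Cyp2j3 was at 1.67, 1.14 and 1.98 FPKM in WT and 2.47, 2.38 and 2.09 FPKM in KO, without overlap, with a log2 fold change of 0.54 (95% confidence interval 0.00 to 1.08) and an adjusted p of 0.437 by edgeR. Cyp2j4 was at 7.09, 2.12 and 2.47 FPKM in WT and 4.73, 2.34 and 3.73 FPKM in KO, and the groups overlapped with and without WT replicate 1. Its log2 fold change was -0.10 (-1.25 to 1.05) with that library and 0.65 (0.07 to 1.23, adjusted p of 0.227 by edgeR) without it. Cyp2c23, an epoxygenase studied mostly in kidney, had a log2 fold change of 0.09 (-0.48 to 0.67), and Cyp2u1, a fatty acid hydroxylase, of 0.00 (-0.35 to 0.35).

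Members with fewer reads gave wide intervals. Cyp2r1, the vitamin D 25-hydroxylase, had 9 to 54 counts over the 6 libraries and a log2 fold change of 0.12 (95% confidence interval -1.15 to 1.39). Cyp2ab1 had 8, 20 and 23 counts in WT and 52, 23 and 53 counts in KO. The CPM of its KO rats lay above those of the WT rats, KO replicate 2 only just, and the log2 fold change was 1.44 (0.27 to 2.62) with an adjusted p of 0.376 by edgeR. Cyp2d1, Cyp2j10 and Cyp3a9 had log2 fold changes from -0.45 to 0.12 with overlapping groups. For Cyp3a9 the overlap came from WT replicate 1, and without it the log2 fold change was 0.40 (-0.11 to 0.90). Cyp2d4, with more reads (639 to 985 counts), had a log2 fold change of -0.22 and overlapping groups.

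The genes that supply P450 enzymes with electrons and haem gave 1 call. Por was at 72.7, 57.4 and 55.6 FPKM in WT and at 55.5, 53.0 and 53.3 FPKM in KO. WT replicate 1 was the high one, and the log2 fold change was -0.19 with 6 libraries and -0.06 without it. Of 20 genes of electron supply and haem turnover, 0 passed by edgeR with 6 libraries (1 at an unadjusted p under 0.05 and 1 by DESeq2, Hmox1 in both), and Hmox1, which breaks haem down, was called lower without WT replicate 1. Hmox1 was at 25.4, 24.5 and 18.9 FPKM in WT and 13.8, 14.3 and 13.4 FPKM in KO, with no overlap, a log2 fold change of -0.65 and an adjusted p of 0.0103 by edgeR without WT replicate 1.

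Partner genes as a whole also hold receptors, other oxidising enzymes, conjugating enzymes and eicosanoid enzymes, and 0 of 117 tested passed with 6 libraries. At an unadjusted p under 0.05 there were 13 (11.1%), beside 11.3% of all genes, and DESeq2 called 7. Without WT replicate 1, 21 of 118 (17.8%) had an unadjusted p under 0.05, beside 17.8% of all genes. Of the 118, edgeR called 8 (6.78%, beside the 3.99% of all genes), 4 higher and 4 lower in KO. Higher were Akr1b8 and Cbr1, which reduce carbonyls, with log2 fold changes of 1.80 and 1.22, and the transcription factors Tef and Arnt2 with 0.41 and 0.38. Lower were Adh7, a retinol and alcohol dehydrogenase, with -1.95, the lipoxygenase Alox15 with -0.78, Hmox1, and Ptgis, the prostacyclin synthase, with -0.52. Adh7 was at 9.63, 4.98 and 4.35 FPKM in WT and 1.41, 1.08 and 1.11 FPKM in KO, without overlap, and its adjusted p by edgeR was 0.000695 without WT replicate 1.

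By list, when WT replicate 1 was left out, 3 of 29 other oxidising or reducing enzymes, 2 of 22 receptors and regulators, 2 of 22 eicosanoid enzymes and 1 of 20 electron and haem genes passed, beside 3.99% of all genes. Differences between lists were not tested. None of 25 tested conjugating enzymes passed by edgeR or DESeq2 (1 at an unadjusted p under 0.05). The median log2 fold changes of the 5 lists without WT replicate 1 lay between -0.15 (eicosanoid enzymes) and 0.03 (receptors and regulators), beside 0.00 for all genes. Ephx1, the microsomal epoxide hydrolase that acts on products of P450 enzymes, was at 33.8, 35.9 and 39.6 FPKM in WT and 43.9, 43.0 and 40.7 FPKM in KO. The groups did not overlap, the log2 fold change was 0.23, and the adjusted p by edgeR was 0.445, or 0.224 without WT replicate 1.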

How the data were processed

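Lung mRNA libraries of 3 WT and 3 KO rats were grouped by their sample titles. The submitters' processing notes name DESeq2 1.42.0, featureCounts 2.0.6, StringTie 2.2.3, HISAT2 2.2.1, CASAVA and the genome build mRatBN7.2, without roles or settings. For 40995 genes, the authors deposited whole-number read counts and FPKM values in each library. The authors' deposited table of 192 genes holds a signal per library (normalized counts), log2 fold changes and p-values. FPKM was used for levels and to compare genes, which poly-A selection and the summing of isoforms can affect.

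Genotype was tested on the counts by the quasi-likelihood test of edgeR 4.0.16 (R 4.3.3), after filterByExpr (minimum count 10, minimum total 15) and TMM scaling. P-values were adjusted by Benjamini-Hochberg over every gene tested (18464, or 18994 when WT replicate 1 was left out), with a threshold of 0.05. CPM uses TMM library sizes. Standard errors and 95% confidence intervals come from the same fit. The test was also run on data simulated with set fold changes. Those data did not copy the distinct make-up of WT replicate 1. Alternatives were RLE and upper quartile normalization, DESeq2 1.42.0, limma-voom and limma 3.58.1 on log2 of FPKM plus 1 or 0.1, other filters, a replicate block, and leaving out each library.

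Named members are those past the threshold in either comparison, the 10 with the highest mean FPKM, family 1, and up to 6 whose CPM in WT replicate 1 was 4-fold from the median of the other 5 libraries with at least 1 CPM somewhere. Named partner genes are up to 4 a list past the threshold, with Por, Ahr and Ephx1. Other genes, among them Cyp4f5, Cyp4f37, Cyp4f18, Cyp2ab1, the Cyp2j genes and the other targets of Ahr, were chosen after their values were seen. The members and the gene lists were chosen with earlier results of these data known. Of 252 symbols in all lists, 248 matched by name, 3 through RefSeq, and 1 was not matched. Promoter windows are from RefSeq (GRCr8) and were found for 25 of 30 members by gene symbol. They were read with Python 3.11.15, pandas 2.3.3 and Biopython 1.88.

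The replicate numbers were not taken to pair rats. Deviations from the group means correlated at -0.0808, 0.0275 and -0.0848, across genes, between WT and KO libraries of the same number. Between libraries of unlike number the values ran from -0.114 to 0.123. With 3 libraries in each group, these values cannot show whether rats shared a litter.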

Additional observations from a re-analysis of the deposited data

How the results depend on the processing

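With all 6 libraries, 0 members were called by edgeR with RLE or upper quartile normalization, limma-voom, limma on FPKM, either other filter and the replicate block, and 2 by DESeq2 (Cyp1a1, Cyp4f17). Leaving out 1 library gave 0 to 1 (Cyp4f17 without WT replicate 1, Cyp4f5 without KO replicate 3). Partner genes called were 7 by DESeq2 and 0 to 8 with a library left out (8 without WT replicate 1), and 0 in the replicate block. The numbers were taken only as names of rats, and the block changed no call.

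Without WT replicate 1, in place of 1 member, DESeq2 and limma-voom each called 3, limma on log2 of FPKM plus 1 or plus 0.1 called 0 (Cyp4f17 was lost), and no filter on low counts called 6. Leaving out a further library gave 0 (WT replicate 2) to 3 (WT replicate 3), with 2 for KO replicate 3. Leaving out a WT library there leaves 1 WT library, assumed to vary like the KO libraries. Cyp1a1 passed with DESeq2, limma-voom, no filter and without KO replicate 2 (adjusted p of 0.0443 by edgeR). In place of 8 partner genes, limma called 2 with FPKM plus 1 and 3 with plus 0.1, no filter gave 16, and leaving out a library gave 4 to 7. The cause was not tested.

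Log2 fold changes near 0 turned in sign. With 6 libraries, Cyp2j4 was 0.094 by limma-voom, 0.016 and 0.046 by limma on FPKM (plus 1, plus 0.1) and 0.055 in the replicate block, and Cyp2u1 was 0.048 with upper quartile normalization, 0.0072 by limma-voom, 0.012 with the 1 CPM filter and 0.0014 in the replicate block. Without WT replicate 1, Cyp2c23 was -0.028 by limma-voom and -0.014 and -0.026 by limma on FPKM. With 1 of 6 libraries left out, the ranges were -0.39 to 0.65 for Cyp2j4, -0.072 to 0.10 for Cyp2u1, -0.085 to 0.28 for Cyp2c23, -0.38 to 0.0055 for Cyp2d4, -0.24 to 0.10 for Cyp2f4, -0.66 to 0.11 for Cyp2j10, -0.28 to 0.67 for Cyp2r1, -2.20 to 0.26 for Cyp2t1, -0.014 to 0.13 for Cyp4b1 and -1.75 to 0.14 for Cyp4f39. With a further library left out beside WT replicate 1, they were -0.17 to 0.20 for Cyp2c23, -0.13 to 0.15 for Cyp2d4, -0.015 to 0.23 for Cyp2f4, -0.29 to 0.64 for Cyp2j10 and -0.58 to 0.094 for Cyp2r1. Low counts limit Cyp4f37, Cyp2r1, Cyp2ab1, Cyp2d2 and Cyp4a3.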

Other observations

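P450 genes of other families, which mostly act on sterols, retinoids and prostanoids, included 13 at the same count minimum. None passed by edgeR with 6 libraries (4 at an unadjusted p under 0.05, beside 11.3% of all genes, and 3 by DESeq2). Without WT replicate 1, 2 of 13 were called lower in KO, beside 2.34% of all genes. Cyp26b1, which breaks down retinoic acid, was at 30.1, 21.0 and 25.4 FPKM in WT and at 13.6, 9.45 and 8.01 FPKM in KO. The groups did not overlap, and without WT replicate 1 its log2 fold change was -1.16 with an adjusted p of 0.00659 by edgeR's quasi-likelihood test. The authors' deposited table gives Cyp26b1 a log2 fold change of -1.301. Ptgis was at 29.9, 21.4 and 26.2 FPKM in WT and 16.9, 15.7 and 16.9 FPKM in KO. Cyp7b1, an oxysterol hydroxylase, had a log2 fold change of -0.78 and an adjusted p of 0.0545 by edgeR without WT replicate 1. Cyp51, Cyp20a1 and Cyp27a1 were also above 10 FPKM in every library and were not called.

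Some genes with a P450 domain in the deposited annotation carry an identifier as their symbol and so fell outside the naming rule. LOC100912642 had 43, 53 and 66 counts in WT and 52, 40 and 65 counts in KO. LOC120102953 and LOC100361492 each had reads in 1 WT library only, 15 and 14 counts.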
